A study of Drosophila melanogaster with 18 samples.

Results

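Cytochrome P450 genes were taken as the probe sets whose gene symbol on the array begins with Cyp followed by a digit. That rule found 42 probe sets, of which 1, Cyp1, codes for a cyclophilin (a protein-folding enzyme) and not for a P450, and was set aside. Each of the other 41 probe sets stood for a different P450 gene. They were 41 of the 2392 probe sets that carried 1 gene symbol, and of the 16322 probe sets measured in all. The gene table used for names holds 83 protein-coding genes with a Cyp family symbol, and the 42 that no symbol on the array named are not analysed here.

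P450 enzymes hold a haem group and use oxygen to add a hydroxyl group to small molecules. In insects the genes fall into 4 clans. The CYP3 and CYP4 clans are rich in enzymes that act on plant toxins, insecticides and lipids in the midgut, Malpighian tubules and fat body. The CYP2 and mitochondrial clans hold most of the enzymes that make the moulting hormone ecdysone, and others with developmental roles. Cyp6t3, also needed for ecdysone synthesis, is of the CYP3 clan. The 41 genes comprised 18 of the CYP4 clan, 16 of the CYP3 clan, 5 of the mitochondrial clan and 2 of the CYP2 clan. None of the ecdysone-making Halloween enzymes, which go by other names, was a member.

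The data were gene-level log2 signals from Affymetrix Drosophila Gene 1.1 ST arrays, 18 arrays in 9 groups of 2 labelled biological replicates, from RNA of Drosophila larvae of the third instar. The study followed mammalian DNMT3L, a cofactor of DNA methyltransferases, over generations of flies that express it. In the Tub-3L groups a UAS-DNMT3L transgene was driven by Tubulin-GAL4, which is active in most cells, and the lines were bred by crossing siblings to generations G1, G2, G4 and G5. Tub-3L G5P larvae were G5 larvae with melanotic tumours.

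Larvae of UAS-3L G1 and of UAS-3L G5 held the transgene with no driver, and w1118 larvae, from the strain used for injection, had neither. A last group, called UAS-3L* G20* here after the paper, is titled as Tub-3L G20* but described as G5 larvae that had lost the driver, so its generation is uncertain. By the methods, Tub-3L flies came from 1 insertion line on the second chromosome. The transgene and driver stocks were each crossed to double balancer flies, and those offspring to each other, to make Tub-3L flies. In the paper, the driver was later removed by crosses to such balancer flies. Tub-3L and UAS-3L larvae may thus differ in stock background as well as in the driver, which was not tested. Each array of a group held RNA from its own pool of whole larvae, and it is not stated that the pools came from separate crosses. The p-values thus measure the spread between pools, estimated over all 9 groups together. All values below are relative to the 2 arrays of UAS-3L G1 unless another control is named, and the 8 comparisons with that group share those arrays. In such bulk samples, fewer cells of a type and less RNA per cell cannot be told apart.

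Other tissues moved with the groups. The mean log2 signal of 2 named flight muscle markers was 3.21 to 5.38 on the arrays of w1118, the groups without driver, Tub-3L G1 and Tub-3L G2, against 10.99 to 11.60 in Tub-3L G4 and G5 and 8.95 to 8.98 in Tub-3L G5P. For 7 male accessory gland markers it was 2.64 to 3.14 in the first set of groups, 6.81 to 7.59 in Tub-3L G4 and G5 and 6.11 in Tub-3L G5P. For 4 eye markers it was at least 7.96 in Tub-3L G4, G5 and G5P and at most 4.41 elsewhere except in w1118. For 3 markers of follicle cells and yolk, a female list, it was 8.13 to 8.89 in Tub-3L G4 and G5 and 8.86 to 9.15 in G5P, against 3.38 to 4.13 elsewhere. The w1118 arrays stood apart from each other, at 6.31 and 4.53 for the eye markers and 5.38 and 3.35 for the flight muscle markers, with replicate 1 the higher.

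Larval tissue markers moved as well. The 6 salivary gland markers fell from 10.98 and 11.06 in UAS-3L G1 to 8.33 and 8.39 in Tub-3L G5 and 3.76 and 3.77 in Tub-3L G5P, and the 3 blood cell markers from 7.76 and 7.79 to 6.10 and 6.25, and to 5.19 and 5.31. The 8 midgut markers were at 6.52 and 6.92 in UAS-3L G1 and at 6.74 to 7.13 in the other groups without driver. With the driver they were already at 7.74 to 7.82 in G1, then 7.41 to 7.55 in G2, 7.77 to 7.85 at G4, 7.05 to 7.07 in G5 and 8.14 to 8.17 in G5P, so Tub-3L G5 was the lowest of the 5 driver groups. The 1 Malpighian tubule marker named, of 4 listed, lay between 6.75 and 7.76 on the 18 arrays, and no fat body marker of the list was named. The part of these shifts in the P450 values was not tested.

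A gene was called when limma's moderated test, adjusted by the Benjamini-Hochberg method over all 16322 probe sets, gave a p under 0.05 and the change was at least 2-fold. All 41 genes were tested. In Tub-3L G5, 14 of 41 (34.1%) were called, 10 higher and 4 lower, against 23.2% of all probe sets (13% higher and 10.2% lower) and 21.9% of those with a symbol. In Tub-3L G5P, 15 (36.6%) were called, 9 higher and 6 lower, against 28.9% of all probe sets (15.2% higher and 13.7% lower). In Tub-3L G4, 8 (19.5%) were called, all higher, against 12.4%, of which 7.54% were higher.

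The early groups and the controls changed fewer of the genes. In Tub-3L G1, 3 genes (7.32%) were called, all higher, against 2.94% of all probe sets, of which 1.23% were higher. In Tub-3L G2, 2 (4.88%) were called, both higher, against 5.62%, of which 3.38% were higher. In UAS-3L G5, 3 (7.32%) were called, 2 higher and 1 lower, against 1.72%. In UAS-3L* G20* it was 2 (4.88%), 1 higher and 1 lower, against 1.66%. In w1118 it was 4 (9.76%), all higher, against 4.21% (2.36% higher). The share of P450 genes called was above the share of all probe sets in 7 of these 8 comparisons and below it in Tub-3L G2. These differences of shares were not tested. Over the 8 comparisons 23 of the 41 genes were called at least once, where 39.9% of all probe sets were, 18 never, and none in all 5 Tub-3L groups, where 0.637% of all probe sets were.

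**Figure D1:**
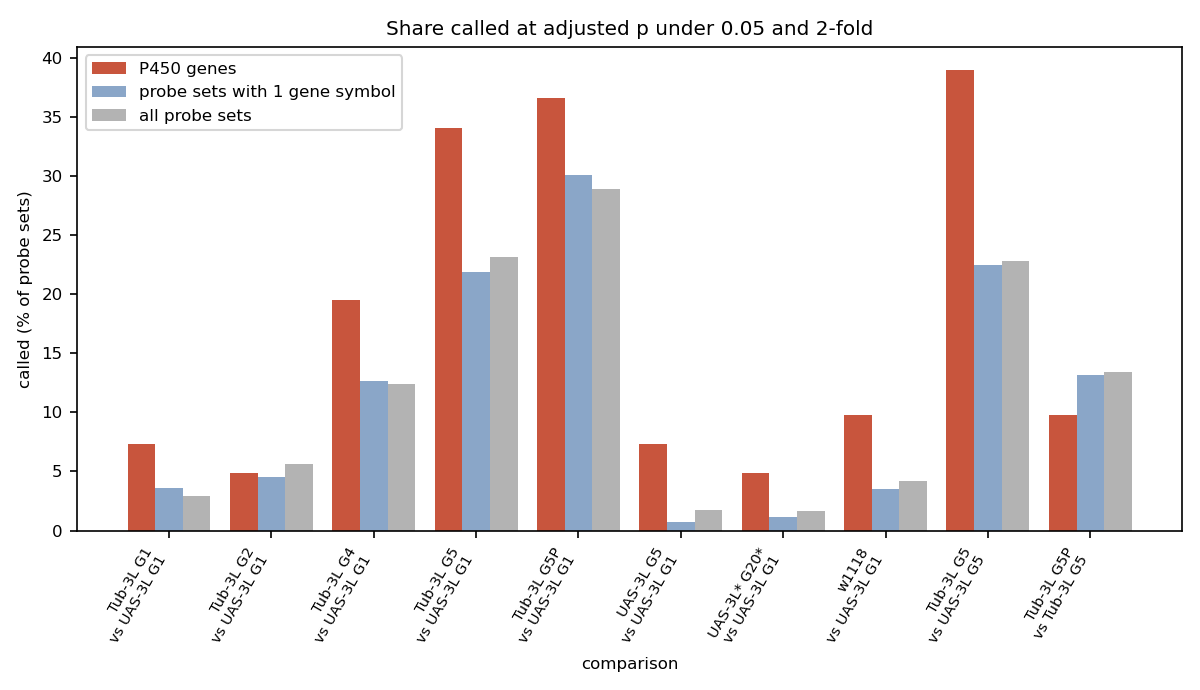
Share of probe sets called (y axis, percent) in each comparison (x axis), for the 41 P450 genes, the 2392 probe sets with 1 gene symbol and all 16322 probe sets. The P450 bar reaches 39% for Tub-3L G5 against UAS-3L G5, where it is 22.8% for all probe sets, and lies below the other bars for Tub-3L G5P against Tub-3L G5.

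Most changes were under 2-fold and went both ways. By the adjusted p alone, 28 of the 41 genes passed in Tub-3L G4 (43.6% of all probe sets), 32 in Tub-3L G5 (57.6%) and 26 in Tub-3L G5P (62.3%, against 63.4% of the P450 genes). Outside these groups 14 passed in Tub-3L G1 (20.2% of all probe sets), 17 in Tub-3L G2 (30.5%), 13 in UAS-3L G5 (14%), 14 in UAS-3L* G20* (13.2%) and 19 in w1118 (28.4%). The median size of the log2 difference, whatever its sign, was 0.55, 0.70 and 0.72 in Tub-3L G4, G5 and G5P, and 0.35, 0.49 and 0.57 over all probe sets. The signed median over the 41 genes was 0.36 in Tub-3L G4, 0.29 in Tub-3L G5 and -0.0052 in Tub-3L G5P, where the median of all probe sets was -0.026, 0.021 and 0.0068. The extremes were wide, from -2.41 for Cyp304a1 to 5.15 for Cyp313a1 in Tub-3L G5. The map of differences from UAS-3L G1 shows the genes in order of their change in Tub-3L G5.

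**Figure D2:**
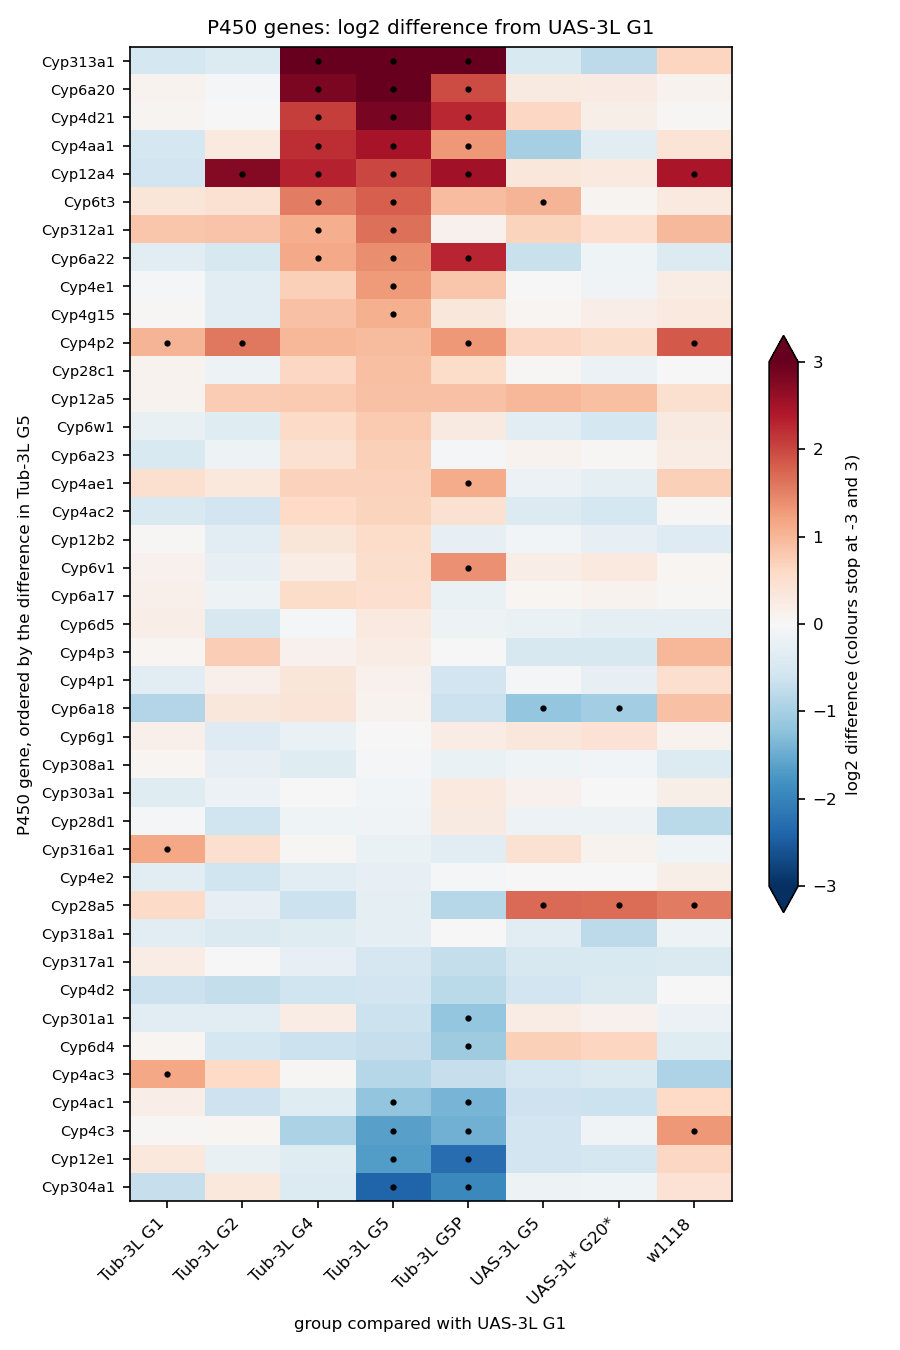
Log2 difference from UAS-3L G1 (colour, red higher and blue lower) for each of the 41 P450 genes (rows) in 8 groups (columns), with a black dot where the gene was called. Most dots lie in the Tub-3L G4, G5 and G5P columns, while Cyp28a5 and Cyp6a18 carry theirs in the groups without driver.

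The largest change was that of Cyp313a1, a CYP4 clan gene. Its log2 signals were 3.20 and 3.33 in UAS-3L G1, 3.0 and 2.61 in UAS-3L G5, 2.52 and 2.45 in UAS-3L* G20*, and 4.35 and 3.47 in w1118. In the driver groups they were 2.59 and 2.87 in G1, 2.80 and 2.93 in G2, 7.53 and 7.58 at G4, 8.46 and 8.37 in G5, with 7.17 and 7.22 in G5P. The 6 arrays of Tub-3L G4, G5 and G5P were thus above every other array, and the gene went from under the lower quartile of its array to above the median. The log2 signal of Cyp313a1 was higher by 5.15 ± 0.22 (SE, adjusted p = 1.83e-09) in Tub-3L G5, by 4.29 in G4 and by 3.93 in G5P. No fold is given, since the UAS-3L G1 signals were not shown to be above background.

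Cyp4aa1, of the same clan, showed the same groups high at a smaller size. It read 5.01 and 5.21 in UAS-3L G1, 4.50 and 3.72 in UAS-3L G5, 4.95 and 4.63 in UAS-3L* G20*, and 5.53 and 5.52 in w1118. In Tub-3L it read 4.49 and 4.64 in G1, 5.40 and 5.41 in G2, 7.31 on both arrays of G4, 7.64 and 7.52 at G5, and 6.48 and 6.32 in G5P. The later driver groups did not overlap the others, and the change was 5.54-fold in Tub-3L G5 (2.47 ± 0.20, adjusted p = 4.49e-07).

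Cyp6a20, a CYP3 clan gene known for its part in aggression between male flies, was at 5.41 and 5.54 in UAS-3L G1, 5.58 and 5.92 in UAS-3L G5, 5.81 and 5.64 in UAS-3L* G20* and 5.78 and 5.39 in w1118. It was at 5.42 and 5.74 in Tub-3L G1, 5.40 and 5.42 in G2, 8.28 and 8.33 at G4, 8.77 and 8.92 in G5, with 7.45 and 7.43 in G5P. Its 12 arrays outside Tub-3L G4, G5 and G5P lay within a range of 0.53. The rise was 10.3-fold in Tub-3L G5 (3.36 ± 0.15, adjusted p = 2.55e-09) and 3.89-fold in G5P.

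Cyp4d21, or sex-specific enzyme 1, is best known from the fat body of the adult male head, where it bears on courtship. It read 2.16 and 2.51 in UAS-3L G1, 3.15 and 2.78 in UAS-3L G5, 2.5 on both arrays of UAS-3L* G20*, and 2.38 and 2.36 in w1118. In Tub-3L it read 2.34 and 2.48 in G1, 2.33 and 2.34 in G2, 4.36 and 4.48 at G4, 5.27 and 5.07 in G5, with 4.97 and 4.24 in G5P. All values outside the last 3 groups, and both values of Tub-3L G4, were under the lower quartile of their array. The difference in Tub-3L G5 (2.84 ± 0.20 on the log2 scale, adjusted p = 1.62e-07) is thus likewise given with no fold. The 6 arrays that were high for Cyp4d21 were also the highest for the accessory gland, flight muscle, eye, and follicle cell and yolk markers.

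Cyp6a22, a neighbour of Cyp6a20, differed in being highest in the larvae with tumours. It was at 5.50 and 5.14 in UAS-3L G1, 4.76 and 4.56 in UAS-3L G5, 5.03 and 5.35 in UAS-3L* G20*, and 4.80 and 5.04 in w1118. It was at 5.24 and 4.76 in Tub-3L G1, 4.72 and 4.94 in G2, 6.31 and 6.60 at G4, 6.80 and 6.64 in G5, with 7.56 and 7.68 in G5P. The step from Tub-3L G5 to G5P was 0.90 ± 0.19 on the log2 scale (adjusted p = 0.0017), under the 2-fold limit, and the call in Tub-3L G4 (1.14) was lost without UAS-3L G1 replicate 2 (0.95) or Tub-3L G4 replicate 2 (0.99).

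**Figure D3:**
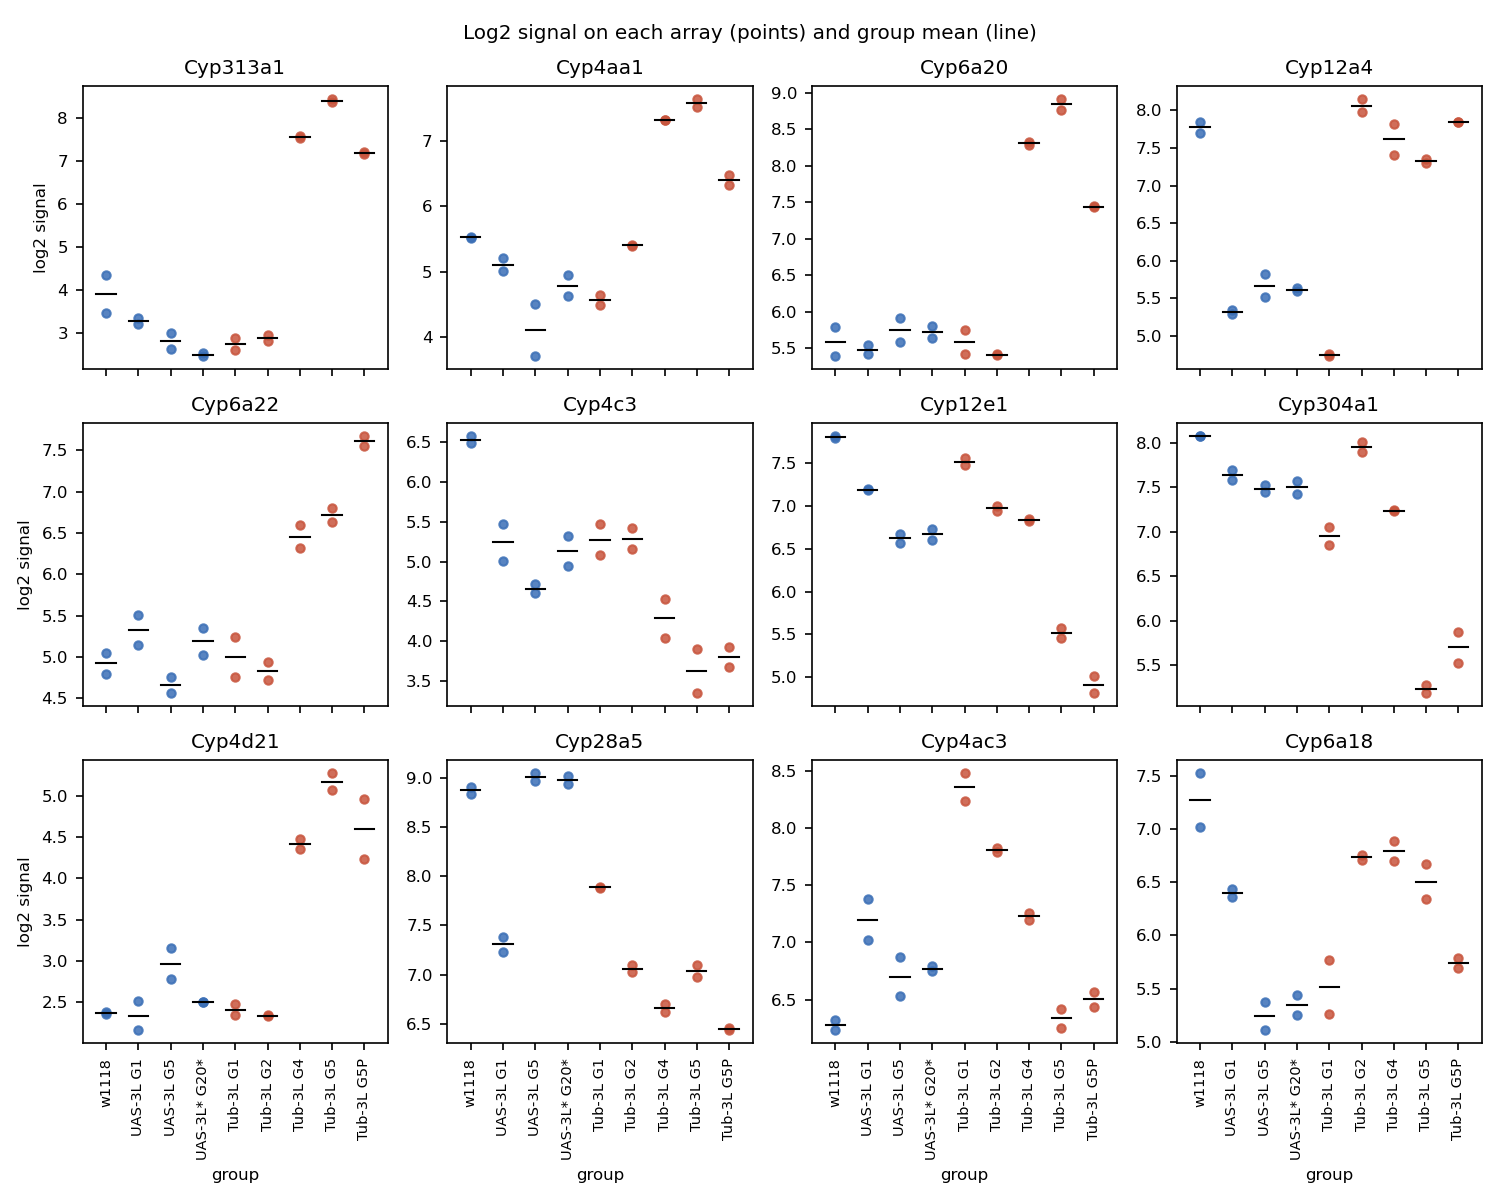
Log2 signal (y axes, scaled per gene) on each array (points) with the group mean (line) in the 9 groups (x axis), for the 12 P450 genes with the widest range of group means among those called at least once. Blue marks groups without the driver and red the Tub-3L groups. The 6 arrays of Tub-3L G4, G5 and G5P stand above all others for Cyp313a1, Cyp4aa1, Cyp6a20, Cyp6a22 and Cyp4d21.

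Smaller rises met the limit in some of the later groups. Cyp6t3, an enzyme of the prothoracic gland needed for ecdysone synthesis, went from 2.57 and 2.69 in UAS-3L G1 to 4.49 and 4.38 in Tub-3L G5 (1.80 ± 0.16), but stayed under the lower quartile on all 18 arrays. It was also called in UAS-3L G5, which has no driver (1.02, and under the limit at 0.96 without UAS-3L G1 replicate 1 and 0.83 without UAS-3L G5 replicate 2), and taking UAS-3L G5 for the control gave a difference in Tub-3L G4 of 0.52. Cyp312a1 rose by 1.66 in Tub-3L G5 and by 1.1 in G4, the latter falling to 0.95 without UAS-3L G1 replicate 2 and to 0.97 without Tub-3L G4 replicate 2, and standing at 0.42 against UAS-3L G5. Neither Cyp6t3 nor Cyp312a1 was called in Tub-3L G5 against UAS-3L G5. The group means there were 4.43 against 3.65 for Cyp6t3 and 8.10 against 7.12 for Cyp312a1. Cyp4e1 (1.27) and Cyp4g15 (1.06), the latter a close relative of the hydrocarbon-making Cyp4g1, were called only in Tub-3L G5 among the 8 comparisons, with Cyp4g15 at 0.97 without UAS-3L G1 replicate 2. Cyp4e1 was under the lower quartile on 10 of the 18 arrays, both UAS-3L G1 arrays among them. Cyp6v1 (1.38) and Cyp4ae1 (1.12) were called in Tub-3L G5P alone, and Cyp4ae1 was at 0.84 without Tub-3L G5P replicate 1 and 0.99 without UAS-3L G1 replicate 1.

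Genes that fell did so mainly in Tub-3L G5 and G5P. Cyp304a1, 1 of the 2 CYP2 clan genes measured, read 7.58 and 7.69 in UAS-3L G1, 7.53 and 7.44 in UAS-3L G5, 7.58 and 7.43 in UAS-3L* G20*, and 8.08 on both arrays of w1118. It read 7.05 and 6.86 in Tub-3L G1, 7.89 and 8.01 in G2, 7.23 and 7.25 at G4, 5.27 and 5.18 in G5, with 5.87 and 5.52 in G5P. The 4 arrays of the fifth generation with driver were 0.98 or more below every other array. Cyp304a1 fell 5.32-fold in Tub-3L G5 (-2.41 ± 0.12, adjusted p = 4.86e-09), while in G4 it was at -0.40.

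Cyp12e1, of the mitochondrial clan, fell furthest in the larvae with tumours. Its signals were 7.18 and 7.19 in UAS-3L G1, 6.68 and 6.56 in UAS-3L G5, 6.73 and 6.60 in UAS-3L* G20*, and 7.79 and 7.81 in w1118. They were 7.47 and 7.55 in Tub-3L G1, 6.99 and 6.94 in G2, 6.82 and 6.85 at G4, 5.58 and 5.46 in G5, with 5.01 and 4.82 in G5P. The G5 and G5P arrays did not overlap the rest. The fall was 3.17-fold in Tub-3L G5 (-1.67 ± 0.088, adjusted p = 1.14e-08) and 4.84-fold in G5P.

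Cyp4c3 was the 1 gene called in both directions over the 8 comparisons. It was at 5.01 and 5.47 in UAS-3L G1, 4.6 and 4.72 in UAS-3L G5, 4.94 and 5.32 in UAS-3L* G20*, and 6.58 and 6.49 in w1118. It was at 5.08 and 5.47 in Tub-3L G1, 5.16 and 5.42 in G2, 4.53 and 4.04 at G4, 3.90 and 3.34 in G5, with 3.92 and 3.68 in G5P. The w1118 arrays were the highest and those of Tub-3L G5 and G5P the lowest of all. It was 2.45-fold higher in w1118 (1.29 ± 0.24, adjusted p = 0.0017) and at -1.62 on the log2 scale in Tub-3L G5, where its arrays were under the lower quartile, but taking UAS-3L G5 for the control its difference in G5P shrank from -1.44 to -0.86.

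Other genes fell less. Cyp4ac1 was at -1.19 in Tub-3L G5 and -1.39 in G5P, and the first of these was -0.97 without Tub-3L G5 replicate 2, the second -0.77 against UAS-3L G5. Cyp301a1, a mitochondrial clan enzyme needed for the adult cuticle, was at 4.86 and 5.01 in UAS-3L G1 and 3.95 and 3.58 in Tub-3L G5P (-1.17 ± 0.18), and at -0.98 without Tub-3L G5P replicate 2. Cyp6d4 fell in Tub-3L G5P by 1.07, and by 0.94 without UAS-3L G1 replicate 2. Against UAS-3L G5, which was above UAS-3L G1 for Cyp6d4, Tub-3L G5 was lower by 1.42 on the log2 scale.

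A further set of genes separated the control groups from each other. Cyp28a5, a CYP3 clan gene, read 7.23 and 7.38 in UAS-3L G1, but 9.04 and 8.96 in UAS-3L G5, 9.02 and 8.94 in UAS-3L* G20*, and 8.91 and 8.84 in w1118. With the driver it read 7.88 and 7.89 in G1, 7.03 and 7.09 in G2, 6.70 and 6.62 at G4, 6.98 and 7.09 in G5, with 6.43 and 6.45 in G5P. Every Tub-3L array and both UAS-3L G1 arrays were thus below the other 6 arrays, with a gap of 0.95. Against UAS-3L G1 the gene was 3.24-fold higher in UAS-3L G5 (1.69 ± 0.082, adjusted p = 2.23e-06) and 2.96-fold higher in w1118, and against UAS-3L G5 it was 3.91-fold lower in Tub-3L G5 (-1.97, adjusted p = 1.26e-09). The control decides the direction of Cyp28a5 in Tub-3L G1, which was 0.58 above UAS-3L G1 and 1.12 below UAS-3L G5 (log2 difference -1.12).

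Cyp12a4, a mitochondrial clan gene whose raised expression gives resistance to the insecticide lufenuron, was high in a different set of groups. It read 5.29 and 5.35 in UAS-3L G1, 5.52 and 5.82 in UAS-3L G5, and 5.59 and 5.64 in UAS-3L* G20*, but 7.70 and 7.85 in w1118. In Tub-3L it read 4.76 and 4.73 in G1, then 8.15 and 7.98 in G2, 7.82 and 7.41 at G4, 7.30 and 7.36 in G5, with 7.85 and 7.84 in G5P. No array lay between 5.82 and 7.30, so the 18 arrays split into 8 low and 10 high, and w1118, without transgene or driver, was among the high ones. The rise was 6.71-fold in Tub-3L G2 (2.75 ± 0.13, adjusted p = 7.27e-08) and 5.49-fold in w1118 (2.46, adjusted p = 2.45e-07), and Tub-3L G1 was at -0.57 (adjusted p = 0.011).

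Cyp6a18 had its lowest group means in UAS-3L G5 and UAS-3L* G20*, whose arrays overlapped those of Tub-3L G1. It was at 6.43 and 6.36 in UAS-3L G1, 5.37 and 5.11 in UAS-3L G5, 5.44 and 5.25 in UAS-3L* G20*, and 7.02 and 7.53 in w1118. It was at 5.26 and 5.77 in Tub-3L G1, 6.76 and 6.71 in G2, 6.70 and 6.89 at G4, 6.34 and 6.67 in G5, with 5.79 and 5.70 in G5P. Its differences of -1.16 ± 0.19 in UAS-3L G5 and -1.05 in UAS-3L* G20* passed the test, the second falling to -0.96 without UAS-3L* G20* replicate 2. Tub-3L G5 and UAS-3L G1 overlapped, so the 2.41-fold difference of Tub-3L G5 from UAS-3L G5 (1.27, adjusted p = 0.00012) came with a low UAS-3L G5.

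In the early driver groups the calls were few. Cyp4ac3 was at 7.38 and 7.02 in UAS-3L G1, 6.53 and 6.87 in UAS-3L G5, 6.79 and 6.75 in UAS-3L* G20*, and 6.23 and 6.32 in w1118. It peaked at 8.24 and 8.48 in Tub-3L G1 and read 7.79 and 7.82 in G2, 7.20 and 7.26 at G4, 6.42 and 6.25 in G5, with 6.57 and 6.43 in G5P. The 4 arrays of Tub-3L G1 and G2 were the highest of the 18, and the rise in G1 was 2.23-fold (1.16 ± 0.14, adjusted p = 0.00015), but 0.98 on the log2 scale without UAS-3L G1 replicate 2, just under the limit.

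The other calls in Tub-3L G1 were lost when single arrays were left out. Cyp4p2 read 4.02 and 3.0 in UAS-3L G1, 4.76 and 4.32 in Tub-3L G1, 5.09 and 5.07 in Tub-3L G2 and 5.15 and 5.53 in w1118. Cyp4p2 was under the lower quartile on 9 of the 18 arrays, both UAS-3L G1 arrays among them. Its difference in Tub-3L G1 was 1.03 ± 0.27, and 0.52 without UAS-3L G1 replicate 2, the low array, or 0.81 without Tub-3L G1 replicate 1. In Tub-3L G5P it was 1.29, and 0.78 without UAS-3L G1 replicate 2. Its differences in Tub-3L G2 (1.57) and w1118 (1.83) stayed above 1 without that array, at 1.06 and 1.32, and against UAS-3L G5 the former was 0.96. Cyp316a1, under the lower quartile on all 18 arrays, read 3.71 and 4.08 in Tub-3L G1 against 2.52 and 2.94, and its difference of 1.17 became 0.96 without UAS-3L G1 replicate 1 and 0.98 without Tub-3L G1 replicate 2. The count of P450 genes called in Tub-3L G1 was 1 in place of 3 when UAS-3L G1 replicate 2 was left out.

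Because w1118 replicate 1 carried raised eye and flight muscle markers, its results were also taken without that array. All 4 calls remained, at 2.53 for Cyp12a4, 1.53 for Cyp28a5, 2.02 for Cyp4p2 and 1.25 for Cyp4c3. Cyp4p3 (1.04), Cyp312a1 (1.03) and Cyp6a18 (1.13) then passed as well, which made 7. Cyp28d1, a gene tied to nicotine tolerance, was lower in w1118, at 7.33 and 7.27 against 8.12 and 8.09 in UAS-3L G1, a difference under the 2-fold limit (adjusted p = 0.00032).

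Within the fifth generation, Tub-3L G5 was compared with UAS-3L G5, which lacks the driver and may also differ in stock background. Here 16 of the 41 genes (39%) were called, 11 higher and 5 lower, against 22.8% of all probe sets, and 31 passed the adjusted p alone, against 57.3%. Cyp313a1 (5.61), Cyp4aa1 (3.47), Cyp6a20 (3.09), Cyp4d21 (2.21) and Cyp6a22 (2.06) led the rises, and Cyp304a1 (-2.26), Cyp28a5 (-1.97), Cyp6d4 (-1.42), Cyp12e1 (-1.1) and Cyp4c3 (-1.04) were the falls. Cyp6w1 (1.11) and Cyp4ac2 (1.09), called in none of the 8 comparisons with UAS-3L G1, were called here, though with each array centred on its median they were at 0.99 and 0.97. Both UAS-3L G5 arrays were under the lower quartile for Cyp4ac2. Cyp4ac2 was at 0.96, Cyp4g15 at 0.96 and Cyp4c3 at -0.76 without Tub-3L G5 replicate 2, while leaving out a UAS-3L G5 array put Cyp4g15 at 0.98 (replicate 1) and Cyp4c3 at -0.98 (replicate 2). Without Tub-3L G5 replicate 2 the count was 13, and without replicate 1 it was 19.

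The driver difference itself changed between generations. In the test of that difference, the log2 difference of Tub-3L G5 from UAS-3L G5 minus that of Tub-3L G1 from UAS-3L G1, 18 genes (43.9%) were called, 11 positive and 7 negative, against 24.1% of all probe sets. By the adjusted p alone 26 passed, against 46.2%. For Cyp313a1 the driver difference was -0.54 in G1 and 5.61 in G5, and the change was 6.15 ± 0.31 (adjusted p = 1.76e-08). For Cyp28a5 it was 0.58 in G1 and -1.97 in G5, a change of -2.54 ± 0.12 (adjusted p = 7.20e-09). For Cyp28a5 the control rose by 1.69 from UAS-3L G1 to UAS-3L G5, while the driver groups differed by 0.85.

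**Figure D4:**
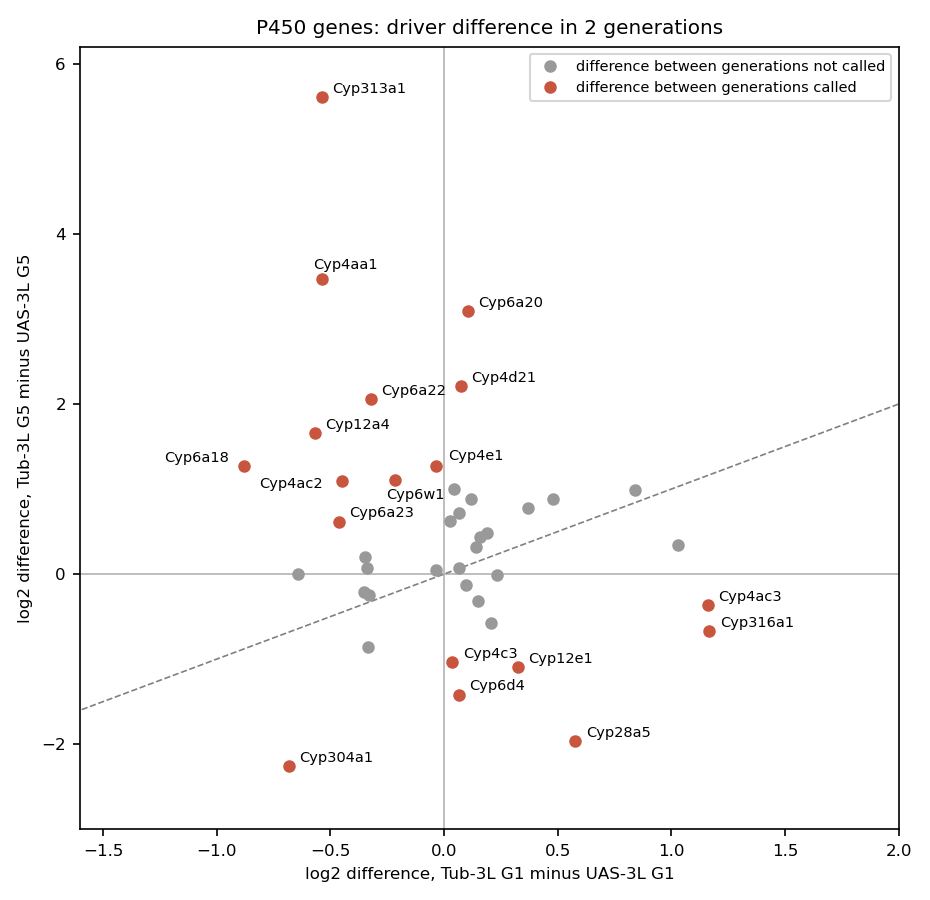
Log2 difference of Tub-3L from UAS-3L larvae in G1 (x axis) and in G5 (y axis) for the 41 P450 genes, with the 18 genes whose difference changed between generations in red and named, and a dashed line of equal differences. Cyp313a1 lies at -0.54 and 5.61, and Cyp28a5 at 0.58 and -1.97.

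Larvae with tumours were compared with the other driver larvae of their generation. Of the 41 genes, 4 (9.76%) were called in Tub-3L G5P against Tub-3L G5, against 13.4% of all probe sets (10.5% lower), and all 4 were lower, namely Cyp312a1 (-1.54), Cyp6a20 (-1.40), Cyp313a1 (-1.22) and Cyp4aa1 (-1.18). Cyp312a1 went from 8.05 and 8.16 to 6.68 and 6.44, near the 6.59 and 6.30 of UAS-3L G1, its lowest group. The other groups without driver had higher means for Cyp312a1, at 7.12 in UAS-3L G5, 6.94 in UAS-3L* G20* and 7.43 in w1118. The other 3 genes stayed well above their UAS-3L G1 arrays. All 4 were genes that had risen in Tub-3L G5, and some adult markers were lower in Tub-3L G5P than in Tub-3L G5 as well. By the adjusted p, 2 of 2 flight muscle, 7 of 7 accessory gland and 2 of 4 eye markers passed lower, where 26.3% of all probe sets did. None of the 3 follicle cell and yolk markers passed (0.055 to 0.37), and 7 of 8 midgut markers passed higher, where 26.4% of all probe sets did. By the same measure 25 of the 41 P450 genes passed (52.7% of all probe sets).

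With UAS-3L* G20* set against UAS-3L G5, limma called no P450 gene, nor was any probe set (0%). At an unadjusted p under 0.05 there were 5 P450 genes and 904 probe sets. Those 5 were Cyp6t3, Cyp4aa1, Cyp6a22, Cyp318a1 and Cyp4d21, with differences from -0.94 to 0.68.

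Many P450 genes lie side by side in the genome, and 19 of the 41 stood in 7 rows, each gene no more than 5 genes from the next member of its row. The row of Cyp6a22, Cyp6a17, Cyp6a23, Cyp6a20 and Cyp317a1 did not move as 1 block. Cyp6a20 rose by 3.36 in Tub-3L G5 and Cyp6a22 by 1.40, but Cyp6a23 by 0.71 and Cyp6a17, known from temperature preference, by 0.50, both passing the test and under 2-fold, and Cyp317a1 fell by 0.50. In Tub-3L G5P Cyp6a17 was at -0.19 and Cyp6a23 at -0.03, and neither passed.

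Other rows split as well. Over the 9 group means, Pearson's r between genes of a row ran from -0.55 (Cyp6a23 and Cyp317a1) to 0.84 (Cyp6a22 and Cyp6a20), given as a description since the groups share controls and arrays. In the Cyp4ac row, Cyp4ac1 fell in Tub-3L G5P by 1.39 while Cyp4ac2 stood at 0.46 (adjusted p = 0.014) and Cyp4ac3 at -0.70. In the Cyp12a pair, Cyp12a4 ranged over 3.32 and Cyp12a5 over 1.0. Cyp12a5 passed higher than UAS-3L G1 in 7 of 8 comparisons, all but Tub-3L G1, and in none by 2-fold. Probes of such related copies can bind each other's RNA, which makes the split between close relatives uncertain.

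**Figure D5:**
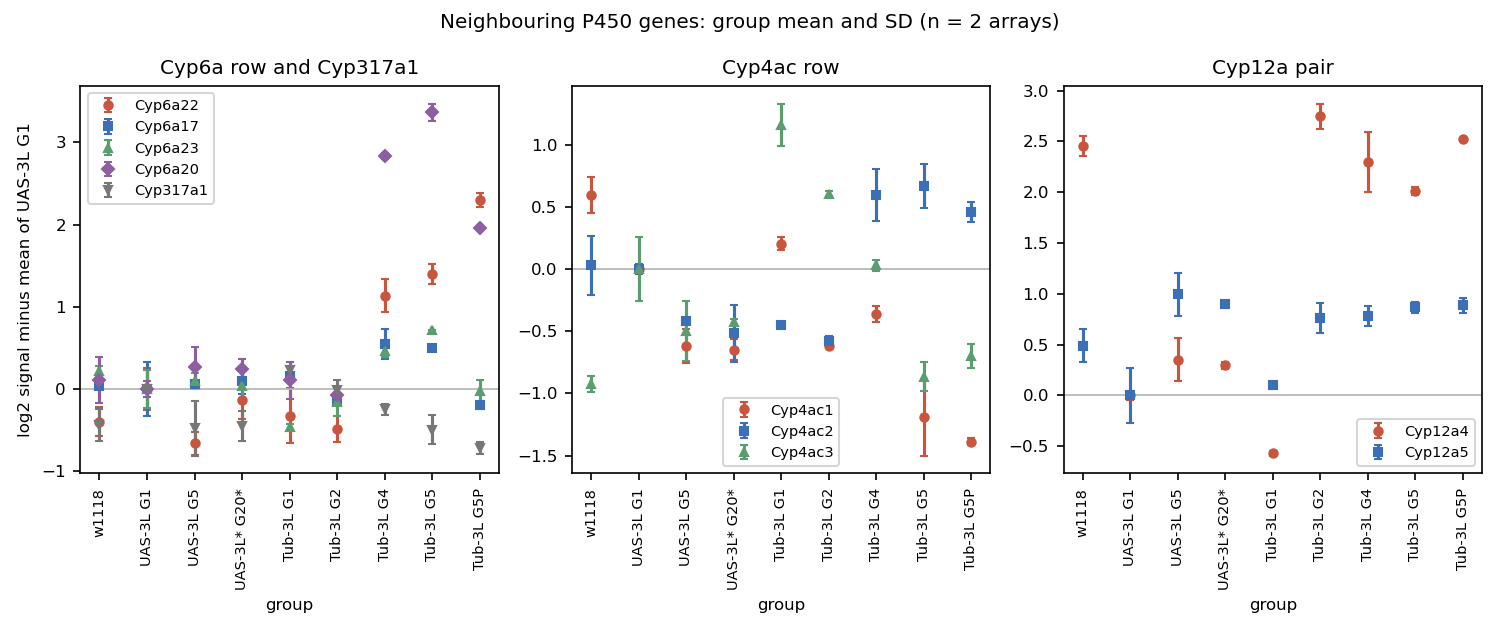
Log2 signal minus the mean of UAS-3L G1 (y axes), as group mean with SD (points and bars, n = 2 arrays), in the 9 groups (x axis) for 3 rows of neighbouring P450 genes. Cyp6a20 and Cyp6a22 rise in Tub-3L G4, G5 and G5P while Cyp317a1 does not, and Cyp12a4 is high in w1118 and from Tub-3L G2 on.

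The genes with the steadiest signals included well-studied detoxification enzymes. Cyp6g1, whose raised expression gives resistance to DDT and imidacloprid, ranged from 7.82 to 8.66 over the 18 arrays and its group means over 0.82. The group means of Cyp6d5 ranged over 0.77, those of Cyp4e2 over 0.77, and those of Cyp6a17 over 0.74, all 4 genes being above the median of every array. Small shifts of such genes could pass the test, as for Cyp6g1, which was at -0.38 in Tub-3L G2 (adjusted p = 0.0017).

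The signal of 5 genes was low throughout. Cyp303a1, needed for sensory bristles, Cyp308a1, Cyp318a1, Cyp316a1 and Cyp6t3 were under the lower quartile on every array. Cyp303a1 and Cyp308a1 passed the adjusted p in none of the 8 comparisons. The remaining genes called in none of the 8 comparisons, Cyp4p1, Cyp4p3, Cyp4d2, Cyp12b2, Cyp28c1, Cyp28d1, Cyp12a5, Cyp317a1 and Cyp6a23, had group means that ranged over 0.82 to 1.48.

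Genes around the P450 enzymes were counted from lists of their pathways. Alas, which makes the first step of haem synthesis and was the 1 partner gene named, rose by 1.44 in Tub-3L G5, 1.24 in G5P and 1.11 in G4. Of 19 glutathione S-transferases, which conjugate the products of P450 enzymes, 9 passed the test (adjusted p under 0.05) higher and 6 lower in Tub-3L G5, where 31.7% and 25.9% of all probe sets did, and 4 higher and 7 lower in G5P, where 33.6% and 28.7% did. Of these, GstE6 was at 2.83 and 2.40 and GstD7 at -2.16 and -2.64. Already in Tub-3L G1, 10 of the 19 passed lower and 1 higher, where 8.77% and 11.5% of all probe sets did. For Tub-3L G2 the counts were 9 lower and 3 higher, where 13.5% and 16.9% did. In Tub-3L G5P against Tub-3L G5, 13 of the 19 passed lower and none higher, where 26.3% of all probe sets passed lower and 26.4% higher. Of the 19, 6 passed lower by at least 2-fold, where 10.5% of all probe sets did. Of 4 UDP-glycosyltransferases, 1 passed higher and 1 lower in Tub-3L G5.

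Regulators and hormone genes moved in both directions. The xenobiotic receptor Hr96 was 0.84 higher in Tub-3L G5P and at 0.19 in Tub-3L G5, where it did not pass. Spineless (ss), the fly relative of the vertebrate aryl hydrocarbon receptor, fell by 1.06 in Tub-3L G5 and 1.38 in G5P. In w1118, 1 of these 2 regulators also passed lower, at -1.03, and the other was at 0.03. In the ecdysone response, 5 genes were named. In each of Tub-3L G4, G5 and G5P, 2 passed higher and 3 lower. Of all probe sets, 22.6% passed higher and 21% lower in G4, with the shares of G5 and G5P as above. In w1118, without transgene or driver, 1 of the 5 passed higher and 3 lower, where 28.4% of all probe sets passed. The differences of the 5 genes there ran from -0.99 to 1.43. In UAS-3L G5, 2 passed lower and none higher, where 14% of all probe sets passed. Tub-3L G2 and UAS-3L* G20* each had 1 lower and none higher, and in Tub-3L G1 none passed. The ecdysone receptor EcR fell by 1.47 in Tub-3L G5, and Hr3, an early-late gene of the cascade, by 1.52. Hr38 rose by 2.38 in Tub-3L G5, and ftz-f1, the competence factor of the prepupa, by 2.34 in G5P. Of the 2 named genes of ecdysone synthesis, mld, a regulator of the pathway, rose by 0.81 in G5 and 1.27 in G5P, and Ptth, the brain hormone that triggers it, was at 0.33 and 0.43 and did not pass, whereas it passed in Tub-3L G2 at 1.28 (adjusted p = 0.015). Of 4 juvenile hormone genes, 1 passed higher and 1 lower in Tub-3L G5 and likewise in G5P. Those higher were Jhedup, a duplicate of the hormone's esterase gene, at 0.86 in G5, and Jheh2, an epoxide hydrolase of the hormone, at 0.71 in G5P. The 1 lower gene was Jhe, the esterase that breaks the hormone down, which fell by 0.80 in Tub-3L G5 and 0.96 in G5P, and also by 1.29 in Tub-3L G2 and 1.69 in w1118.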

How the data were processed

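The deposited values are log2 signals, 1 per gene and array, that the authors normalised by RMA in Affymetrix Expression Console 1.3 (per the labels and the submitters' processing notes) and compared in Transcriptome Analysis Console. A further 9 columns of group averages were not used. Probe sets were named from the platform annotation, and names and neighbours were looked up in RefSeq (Release 6 plus ISO1 MT). Clans were assigned by the family number in the gene symbol, from a separate list of families. No filter on low values was applied. Precision is limited by 2 arrays a group. RMA sets the probe signals of the arrays to 1 distribution, so values show shifts relative to the rest of each array. The medians of the gene-level values still differed, from 6.17 and 6.22 in UAS-3L G1 to 6.38 and 6.39 in Tub-3L G5. Centring each array on its median lost 8 of 89 calls.

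Group means of all 16322 probe sets were fitted to all 18 arrays with limma 3.58.1 in R 4.3.3, whose spread estimate had 9 residual degrees of freedom and 2.71 from the prior, and p-values were adjusted by the Benjamini-Hochberg method within each of 12 comparisons. The fit was tested on simulated data. Values per array are given for the 12 genes with the widest range of group means among those called, and in the pathway lists for up to 4 genes by their p in Tub-3L G5P. The members, lists and tests were chosen with earlier results of these data known. The transgene itself was not analysed here.

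Alternatives were a replicate block, centring of arrays, leaving out the dimmest 25% of probe sets, no fold threshold, fits to the compared groups alone, the methods' t-test, both UAS-3L controls together and leaving out each array. UAS-3L G5 as the control, and a fit without Tub-3L G4, G5 and G5P, were added after seeing the data. Deviations of same-numbered replicates were compared across groups as a check of pairing. Duplicate arrays of a group differed by a median of 0.118 to 0.158 (log2) over all probe sets, and none were copies.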

Additional observations from a re-analysis of the deposited data

Results flagged for a closer look

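For 18 P450 genes the driver difference in G5 (Tub-3L G5 against UAS-3L G5) departed from that in G1 (Tub-3L G1 against UAS-3L G1) by a limma test of the difference itself, with an adjusted p (Benjamini-Hochberg) under 0.05 and a change of at least 2-fold, which 24.1% of all probe sets met. The values are the G5 log2 difference minus the G1 log2 difference.

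The change was positive for 11 genes. It was 6.15 for Cyp313a1, 4.01 for Cyp4aa1, 2.99 for Cyp6a20, 2.38 for Cyp6a22, 2.23 for Cyp12a4, 2.15 for Cyp6a18 and 2.13 for Cyp4d21. It was 1.54 for Cyp4ac2, 1.32 for Cyp6w1, 1.31 for Cyp4e1 and 1.08 for Cyp6a23. Cyp6a18 and Cyp12a4 had negative driver differences in G1 (-0.88 and -0.57) and positive ones in G5 (1.27 and 1.66).

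The change was negative for 7 genes. It was -2.54 for Cyp28a5, -1.83 for Cyp316a1, -1.58 for Cyp304a1, -1.53 for Cyp4ac3, -1.48 for Cyp6d4, -1.42 for Cyp12e1 and -1.07 for Cyp4c3. Cyp316a1 lay under the lower quartile on all 18 arrays. Cyp304a1 was lower with the driver in both generations, at -0.68 in G1 and -2.26 in G5.

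Of these changes, 3 missed the threshold when single arrays were left out. Cyp4e1 was at 0.94 without Tub-3L G1 replicate 2, and Cyp6a23 at 0.92 without UAS-3L G1 replicate 1. Cyp4c3 was at -0.87 without Tub-3L G1 replicate 2, -0.84 without UAS-3L G1 replicate 1, -0.79 without Tub-3L G5 replicate 2 and -1.01 (adjusted p = 0.057) without UAS-3L G5 replicate 2.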

How the results depend on the processing

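With 2 arrays a group, single arrays and the choice of control set several counts of P450 genes called. Leaving out 1 array at a time, the count ran from 1 to 3 in Tub-3L G1, 3 to 5 in UAS-3L G5 (5 without UAS-3L G1 replicate 1), 1 to 4 in UAS-3L* G20* (4 without UAS-3L G1 replicate 1, 1 without UAS-3L* G20* replicate 2) and 5 to 7 in w1118 (7 without w1118 replicate 1). Elsewhere it stayed within 1.5 times its value, at 6 to 10 in Tub-3L G4, 13 to 16 in G5 and 13 to 15 in G5P. Without the fold threshold the counts were 14 for Tub-3L G1, 17 for G2, 28 for G4, 32 for G5, 26 for G5P, 13 in UAS-3L G5, 14 in UAS-3L* G20*, 19 in w1118, 31 for Tub-3L G5 against UAS-3L G5 and 25 for Tub-3L G5P against Tub-3L G5, where 20.2%, 30.5%, 43.6%, 57.6%, 62.3%, 14%, 13.2%, 28.4%, 57.3% and 52.7% of all probe sets passed, in that order. In Tub-3L G1 and in G2 the count was 1 without the dimmest probe sets, 1 when the compared groups were fitted alone and 1 by the methods' t-test at its unadjusted threshold. Fitted alone, UAS-3L G5 and UAS-3L* G20* gave 0 calls each. After Benjamini-Hochberg adjustment the methods' t-test left 4 calls in Tub-3L G4 and 0 in Tub-3L G1, Tub-3L G2, UAS-3L G5, UAS-3L* G20* and w1118, where limma gave 3, 2, 3, 2 and 4. With both UAS-3L groups as the control Tub-3L G1 had 1 call, and taking UAS-3L G5 for the control Tub-3L G2 had 7 and w1118 10. With that control Cyp28a5 turned from 0.58 to -1.12 in Tub-3L G1 (adjusted p = 2.86e-06) and from 1.56 to -0.13 in w1118 (adjusted p = 0.25), since UAS-3L G5 is high for that gene. Centring the arrays changed the split of higher to lower calls to 6 and 1 in Tub-3L G4, 1 and 2 in UAS-3L G5, and 1 and 4 in Tub-3L G5P against Tub-3L G5. A replicate block left the count unchanged in all 12 comparisons (3 in Tub-3L G1, 14 in G5, 15 in G5P) and lost 0 of 89 calls, and same-numbered replicates did not deviate together (correlations -0.064 to 0.039), so the numbers do not pair the samples. The causes of these changes were not tested. The share of all probe sets called was counted only for the main settings and without the fold threshold. Counts of P450 genes under the other alternatives, here and above, thus have no such share to be set against.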
